A study of Mus musculus with 2 samples.

Results

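The genes described here encode the subunits and assembly factors of respiratory complex II (succinate dehydrogenase), complex III (the cytochrome bc1 complex) and mitochondrial ATP synthase, 42 of the 21313 mouse protein-coding genes examined. The rule for membership uses the gene symbol and no measured value, though the list was proposed with earlier results of these data known. It takes every protein-coding gene beginning with Sdha, Sdhb, Sdhc, Sdhd, Uqcr, Uqcc, Atp5 or Atpaf, and in addition Cyc1, Bcs1l, Ttc19 and Lyrm7. By role the genes comprised 4 complex II subunits, 4 complex II assembly factors, 9 complex III subunits, 6 complex III assembly factors, 17 ATP synthase subunits and 2 ATP synthase assembly factors. The study was a chromatin immunoprecipitation sequencing experiment with an antibody to the transcription factor NRF1 in CH12.LX, an immortalized B-cell lymphoma line of a female mouse of strain B10.H-2aH-4bp/Wts. There were 2 biological replicates of this single group, both from the same line, so no condition was compared and the spread between them is the spread within this line. A control is named in the labels and was not analysed here.

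NRF1 (nuclear respiratory factor 1) is a DNA-binding protein that recognises a GC-rich palindromic element and is known for activating nuclear genes that encode parts of the mitochondrial respiratory chain. Complex II oxidises succinate and passes its electrons to ubiquinone, complex III passes electrons from ubiquinol to cytochrome c while moving protons across the inner membrane, and ATP synthase uses the returning protons to make ATP. All complex II subunits are encoded in the nucleus, whereas complex III and ATP synthase each also contain subunits made from mitochondrial DNA, which are outside this gene list.

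A gene was called occupied when the summit of a peak lay within 1000 bp of its start, taken as the 5′ end of the RefSeq gene in mm10. Peaks came from the authors' optimal set, which keeps peaks of the pooled replicates that pass an irreproducible discovery rate (IDR) threshold. By this rule 37 of the 42 genes were occupied (88.1%, 95% Wilson interval 75 to 94.8%), against 36.8% of all protein-coding genes (7837 of 21313). With other choices the count of the list was 36 within 500 bp (33.7% of all genes) and 38 within 2000 bp (39.2%). It was 37 in the authors' conservative set (35.5%), 38 without replicate 1 (36.6%) and 38 without replicate 2 (37.9%). In the authors' mm9 set it was 36 (35.3%), where any GENCODE transcript start counted, so both peaks and starts differ. The count was lowest, at 33, among optimal peaks above their median signal, against 26.9% of all genes. The interval covers counting over genes and not variation between replicates. Of the other respiratory chain genes, complex I was taken as symbols beginning with Nduf. Complex IV and cytochrome c were taken as symbols beginning with Cox4 to Cox8, plus Cycs and Cyct. These symbols were not chosen to take assembly factors, whereas the complex I symbols include those beginning with Ndufaf. They also take alternative forms of the same subunit, such as Cox4i1 (occupied) and Cox4i2 (not occupied). The lists therefore differ in makeup, and their shares are not a like comparison. By the same rule of occupancy 41 of 49 complex I genes (83.7%) and 8 of 20 complex IV and cytochrome c genes (40%) were occupied. By transcript starts in the RefSeq promoter table, described below, these were 37 of 42 (88.1%) and 8 of 15 (53.3%). The 8 complex IV and cytochrome c genes were not the same by both starts. Cox5a and Cox7a2 counted as occupied only by transcript starts, and Cox6c and Cox4i1, occupied by gene start, had no entry in the promoter table. The list described here had 34 of 35 (97.1%) by transcript starts, against 40.2% of all genes. Within the list the count was 3 of 4 for complex II subunits, 3 of 4 for complex II assembly factors, 8 of 9 for complex III subunits, 6 of 6 for complex III assembly factors, 16 of 17 for ATP synthase subunits and 1 of 2 for ATP synthase assembly factors. Subunits (27 of 30) and assembly factors (10 of 12) were thus occupied in close to equal shares.

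**Figure D1:**
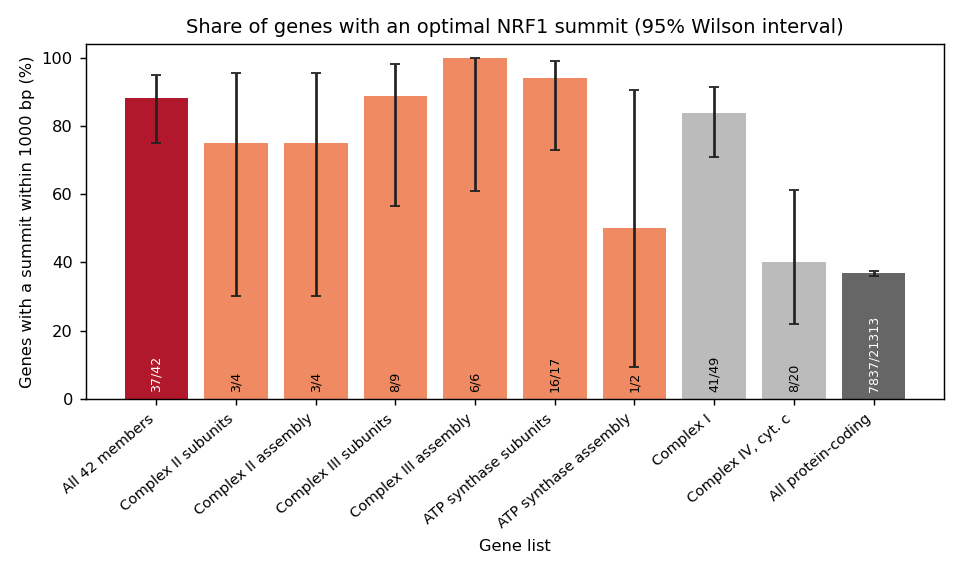
Share of genes with an optimal NRF1 summit within 1000 bp of the gene start (vertical axis, percent) for the 42 genes, their 6 roles, the other respiratory chain lists and all protein-coding genes; bars are shares, whiskers 95% Wilson intervals, and the counts are printed in the bars. The bar for all 42 genes stands at 88.1% and that for all protein-coding genes at 36.8%.

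Most of the list lay in CpG-rich promoter sequence, measured in the mm9 genome over 1000 bp around the start (GC fraction of at least 0.5 and observed over expected CpG of at least 0.6). This held for 34 of the 42 genes, against 46.6% of all genes. Among CpG-rich promoters 30 of 34 genes of the list were occupied (88.2%), against 63.7% of all genes. The share of the list that was occupied was thus almost the same with and without this restriction, while the share of all genes was higher with it.

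The strength of each peak is given by its signal value in the optimal set, on the peak caller's own scale. Values per replicate come from each replicate's own list, whose highest peaks reach 350 in replicate 1 and 367 in replicate 2 against 703 in the pooled list, so the optimal value is not their mean. The median over the 37 occupied genes was 313 (quartiles 60.8 and 549, range 27.3 to 661), against 85.5 over all 7837 occupied genes (quartiles 36.0 and 418, range 4.85 to 703). Of the 37, 33 (89.2%) were above 38.0, the median signal of all optimal peaks, against 73.2% of all occupied genes. The strongest 25% of occupied genes held 15 of the 37 (40.5%), the strongest 10% held 8 (21.6%) and the weakest 25% held 4 (10.8%). Complex I genes had a median of 248 over 41 occupied genes, with Ndufa8 at 657 and Ndufb10 at 644 the strongest. The 8 occupied complex IV and cytochrome c genes had a median of 458, with Cox6a1 at 582 and Cox6c at 559 the strongest. The weakest of these 8 was Cox4i1 (named after its value was seen) at 16.5, below the lowest gene of the list, so the occupied complex IV and cytochrome c genes also spread over strong and weak signals.

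**Figure D2:**
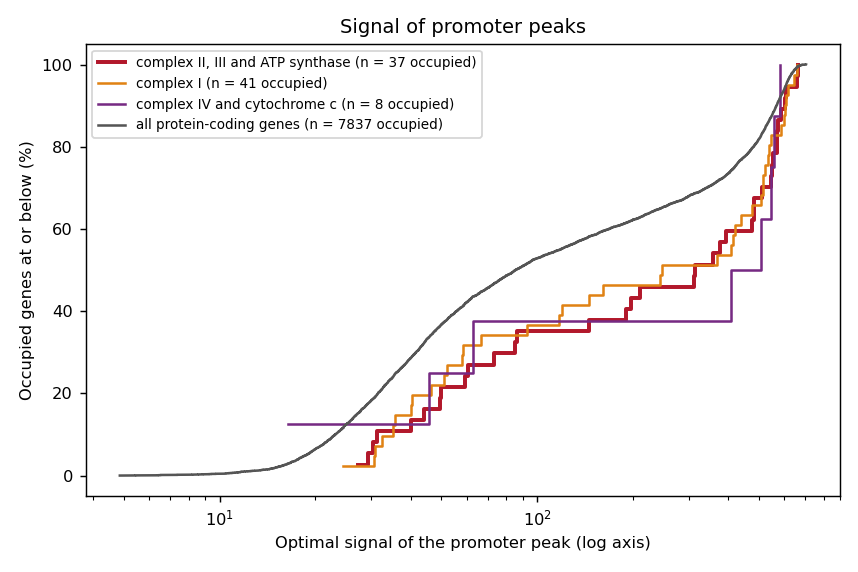
Cumulative share of occupied genes (vertical axis, percent) at or below each optimal signal (horizontal axis, log scale) for the 37 occupied genes of complex II, complex III and ATP synthase, for complex I, for complex IV with cytochrome c, and for all occupied protein-coding genes. The curve for the list lies to the right of that for all genes over most of the axis, with medians of 313 and 85.5.

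Of the 37 occupied genes, 24 had signals of 146 or more (Atp5pb lowest) and 13 had 86.7 or less (Atp5b highest). A line was drawn between them at 100 after the values were seen. In signal units wider steps lay higher up, from 210 (Lyrm7) to 313 (Uqcr10) and from 393 (Uqcrb) to 474 (Uqcr11). The line is thus a choice made for description. Above it were 24 of 37 genes (64.9%), against 47.2% of all occupied genes. The summits of the 24 stronger genes lay at a median of 44 bp from the gene start and those of the 13 weaker genes at 126 bp. Over all occupied genes the same medians were 78 and 108 bp.

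To show what the peaks lay over, the NRF1 consensus was searched as GCGCACGCGC or GCGCATGCGC on both strands, in the RefSeq promoter table for GRCm38.p6, which holds 250 bases before to 50 after each transcript start. Of the 42 genes 35 matched the table, and Atp5a1, Atp5mpl, Cyc1, Sdhc, Uqcrb, Uqcrc2 and Uqcrq had no entry. In these, 8 promoters (22.9%) held an exact match, against 3.58% of all 17274 promoters, and 21 (60%) held a match with up to 1 mismatch, against 14.6%. The sites are printed gene by gene in what follows, 30 bases each, 5′ to 3′ on the strand of the gene, with the matched 10 bases in capitals. A match is a description of the sequence.

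Complex II carries the electron path from succinate to ubiquinone and had the highest median signal of any role with more than 1 occupied gene. Its 3 occupied subunits had a median of 587 and all 3 were in the strongest 25% of occupied genes. Sdhd, a membrane anchor subunit, had an optimal signal of 609, with 299 in replicate 1 and 313 in replicate 2 (mean 306 ± 9.81, SD, n = 2). Sdha, the flavoprotein that oxidises succinate, had 587, with 305 in replicate 1 and 284 in replicate 2. Sdhb, the iron-sulfur subunit, had 483, with 244 in replicate 1 and 241 in replicate 2. In all 3 genes the replicates lay close together and the summit was upstream, at -72 bp for Sdhd, -46 bp for Sdha and -39 bp for Sdhb (negative means upstream of the gene start). The fourth subunit, Sdhc, the other membrane anchor, had no optimal summit within 1000 bp and its nearest one lay 36413 bp away. Its strongest peaks in the relaxed lists, which hold weak peaks and background, were 6.12 in replicate 1 at -502 bp and 5.40 in replicate 2 at +346 bp, so the replicates placed it differently. The occupied subunits are shown because each has the element close to its summit, exact in Sdhd and with 1 mismatch in Sdha and Sdhb.
Sdhd: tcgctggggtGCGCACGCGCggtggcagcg
Sdha: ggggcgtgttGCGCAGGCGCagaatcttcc
Sdhb: gaagcccagtGGGCATGCGCcctacgggcc
The Sdhd window is chr9:50603909-50603938 (GRCm38.p6, minus strand), and the centre of its site lay 2.5 bp from the summit. The Sdha window is chr13:74350276-74350305 (minus strand), 4.5 bp from the summit, and 2 further sites with 1 mismatch lay in the same promoter. The Sdhb window is chr4:140961205-140961234 (plus strand), 12.5 bp from the summit.

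The complex II assembly factors fell into strong and weak members. Sdhaf4, which binds the flavinated Sdha protein during assembly, had 605, with 296 in replicate 1 and 310 in replicate 2. Sdhaf3, which helps mature the iron-sulfur subunit, had 511, with 265 in replicate 1 and 246 in replicate 2. Sdhaf1, a factor with a like role for Sdhb, had 59.3, with 35.0 in replicate 1 and 26.6 in replicate 2. Sdhaf4 and Sdhaf3 were about as strong as the subunits, while Sdhaf1 was below the median of all occupied genes, and it had a second summit of 40.2 at +638 bp. Sdhaf2, needed to attach FAD to Sdha, had no optimal summit, with relaxed peaks of 8.78 in replicate 1 at -125 bp and 12.2 in replicate 2 at +141 bp. It was present in the authors' conservative set at 15.3. The 2 strong assembly factors carried these sites.
Sdhaf4: ccaccttggtGCGCGTGCGCagacgctgtg
Sdhaf3: cccaccttctGCGCAGGCGCggcgcgatgc
The Sdhaf4 site is exact, read on the opposite strand, in chr1:24005613-24005642 (minus strand), 26.5 bp from the summit. The Sdhaf3 site has 1 mismatch, in chr6:6956001-6956030 (plus strand), 2.5 bp from the summit.

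Complex III subunits ranged from among the strongest promoters of the list to among the weakest, with a median of 313 over 8 occupied genes. Uqcrc1, a core subunit, had 659, with 335 in replicate 1 and 327 in replicate 2 (mean 331 ± 5.58, SD, n = 2), at percentile 99.3 of occupied genes. Uqcrc2, the other core subunit, had 30.5, with 23.7 in replicate 1 and 7.05 in replicate 2. The core subunits thus stood at opposite ends of the list, and Uqcrc2 was the gene whose replicates differed most. It ranked 8134 in the list of replicate 1 and 30474 in that of replicate 2, and was absent from the conservative set. Uqcr11, a small membrane subunit, had 474, with 238 in each replicate. Uqcrb, a subunit near the ubiquinone-binding site, had 393, with 212 in replicate 1 and 183 in replicate 2. Uqcrh, the hinge protein next to cytochrome c1, and Uqcr10, a small subunit, both had 313, with 159 and 155 for Uqcrh and 156 and 159 for Uqcr10 in replicates 1 and 2. These 4 small subunits formed a middle range in which the replicates lay close together.

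The subunits that carry the redox groups of complex III were weak by comparison. Uqcrfs1, the Rieske iron-sulfur protein, had 49.8, with 26.4 in replicate 1 and 22.6 in replicate 2. Cyc1, cytochrome c1, had 44.0, with 22.8 in replicate 1 and 22.9 in replicate 2, and its summit lay at +16 bp. Both were occupied close to the start in both replicates, with signals below the median of all occupied genes. Uqcrq, a small subunit, had no optimal summit. Its strongest relaxed peaks were 11.4 in replicate 1 at +364 bp and 12.2 in replicate 2 at -433 bp, on opposite sides of the start. The nearest optimal summit lay at -39288 bp. In the pooled list its strongest peak was 17.8 at -428 bp. Uqcrq counted as occupied without replicate 1, without replicate 2 and in the mm9 set. Its mm9 signal was 34.7, close to the lowest value of that set, 34.3.

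The complex III assembly factors were all occupied, with a median of 284. Ttc19, which clears fragments of the Rieske protein, had 568, with 289 in replicate 1 and 282 in replicate 2. Uqcc1 and Uqcc2, which act on cytochrome b early in assembly, had 376 and 358. For Uqcc1 the replicates gave 199 and 177, and for Uqcc2 168 and 195. Ttc19 was the strongest of the 6 and Uqcc1 and Uqcc2 followed; the Uqcc2 peak held a second summit of 245 at +192 bp inside the same region. Lyrm7, a chaperone of the Rieske protein, had 210, with 98.1 in replicate 1 and 115 in replicate 2. Uqcc3, which stabilises an assembly intermediate holding cytochrome b, had 49.6, with 36.6 in replicate 1 and 13.8 in replicate 2. Bcs1l, the AAA protein that inserts the Rieske protein, had 29.3, with 15.5 in replicate 1 and 13.3 in replicate 2. Uqcc3 was the other gene of the list whose replicates differed by more than 2-fold, and Bcs1l, though weak, was alike in both. The 4 complex III genes with a strong peak over an element found in the promoter table are shown. The element is exact for Uqcrc1 and Uqcc2 and has 1 mismatch for Uqcr11 and Ttc19.
Uqcrc1: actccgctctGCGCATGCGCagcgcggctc
Uqcc2: gcgccttagtGCGCACGCGCcctctgcggt
Uqcr11: gatcgccttcACGCATGCGCtatacgtctg
Ttc19: atgcgtcatcGCGCATGCGGactggcgggg
The Uqcrc1 window is chr9:108936668-108936697 (plus strand), downstream of the start and 0.5 bp from the summit at +35 bp. The Uqcc2 window is chr17:27133920-27133949 (minus strand), 7.5 bp from the stronger summit. The Uqcr11 window is chr10:80406808-80406837 (minus strand), 3.5 bp from the summit. The Ttc19 window is chr11:62281432-62281461 (plus strand), 5.5 bp from the summit.

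ATP synthase has a catalytic head (F1), a membrane rotor and a side stalk, and its genes spanned the whole range of signals, with a median of 169 over 16 occupied subunits. In the head, Atp5c1, the gamma subunit that turns inside it, had the highest signal of the list at 661, with 318 in replicate 1 and 346 in replicate 2 at percentile 99.4 of occupied genes. The genes of the alpha and beta subunits, which form the catalytic ring, were weaker. Atp5a1 (alpha) had 73.3, with 37.2 in replicate 1 and 35.9 in replicate 2, at +266 bp. Atp5b (beta) had 86.7, with 35.8 in replicate 1 and 54.0 in replicate 2, at -126 bp. Both ring subunits lay near the median of all occupied genes, 85.5. Atp5e (epsilon) had 31.4, with 16.0 in replicate 1 and 14.8 in replicate 2, at +369 bp. Atp5d (delta) had 27.3, the lowest of the list, with 15.7 in replicate 1 and 11.2 in replicate 2, at +540 bp from the 5′ end of the RefSeq gene. That value depends on which start is used, since the promoter table gives Atp5d starts 3577 and 3617 bp further downstream. The strongest optimal summit within 1000 bp of these starts was 525, at -823 and -863 bp, with 269 in replicate 1 and 259 in replicate 2. At +2 bp from the second start lay an optimal summit of 491, with 256 in replicate 1 and 237 in replicate 2.

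The c subunit of the rotor ring is encoded by 3 genes for the same mature protein, and their promoters differed. Atp5g2 had 570, with 271 in replicate 1 and 302 in replicate 2, at -16 bp. Atp5g1 had 60.8, with 26.8 in replicate 1 and 39.3 in replicate 2, at -267 bp. Atp5g3 had no optimal summit within 1000 bp of the RefSeq gene end. Its strongest relaxed peak there was 3.45 in replicate 2, and replicate 1 had none. An optimal summit of 517 lay at +1155 bp, with 274 in replicate 1 and 245 in replicate 2. It was +17 bp from the transcript start in the promoter table, so of the 3 genes Atp5g2 and Atp5g3 had strong summits at a transcript start and Atp5g1 a weak one.

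Side stalk genes were mostly strong. Atp5j (coupling factor 6) had 574, with 281 in replicate 1 and 296 in replicate 2, at -459 bp. Atp5o (the oligomycin sensitivity-conferring protein, which joins the stalk to the head) had 549, with 282 in replicate 1 and 270 in replicate 2. Atp5h (subunit d) had 546, with 282 in replicate 1 and 269 in replicate 2. These 3 lay close together in both replicates, and Atp5pb (subunit b) was lower at 146, with 87.3 in replicate 1 and 58.6 in replicate 2. Atp5j had a second summit of 402 at +758 bp, with 218 in replicate 1 and 185 in replicate 2. It lay 208 bp from the start of Gabpa, which encodes a subunit of an ETS-family factor also called NRF2, and at -123 bp from a second Atp5j start in the promoter table.

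The small membrane subunits spread over the range. Atp5mpl (a small proteolipid) had 554 and Atp5k (subunit e) had 480. The replicates gave 273 and 282 for Atp5mpl and 242 and 241 for Atp5k. Atp5l (subunit g) had 191, with 95.6 in replicate 1 and 93.1 in replicate 2. Subunits e and g sit side by side in the dimer interface of the enzyme, and the signal of Atp5k exceeded that of Atp5l in both replicates. Atp5j2 (subunit f) had 85.2, with 37.0 in replicate 1 and 48.2 in replicate 2. Atp5md (subunit k) had 40.1, with 25.7 in replicate 1 and 16.0 in replicate 2. Atp5j2 thus lay near the median of all occupied genes, 85.5, and Atp5md below it.

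Of the assembly factors, Atpaf1, a chaperone of the beta subunit, had 197, with 110 in replicate 1 and 88.3 in replicate 2, at +329 bp. Atpaf2, a chaperone of the alpha subunit, had no optimal summit within 1000 bp of the RefSeq gene end and a relaxed peak of 3.46 in replicate 2 alone. The promoter table starts Atpaf2 3445 bp inside that gene, and there optimal summits of 176 and 350 lay at -26 and -536 bp. The stronger of them had 179 in replicate 1 and 172 in replicate 2, and Gid4 started within 1000 bp of it. Over the 35 genes of the list with transcript starts in the table, 34 were occupied by these starts (97.1%), against 40.2% of 17274 genes, and 32 of the same 35 by the RefSeq gene end. The ATP synthase sites that are shown are the 4 exact ones, then Atp5h and Atp5g3 with 1 mismatch.
Atp5c1: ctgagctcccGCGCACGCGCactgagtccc
Atp5g2: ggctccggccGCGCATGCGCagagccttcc
Atp5o: gctggcgcgcGCGCGTGCGCtctggcgcca
Atp5k: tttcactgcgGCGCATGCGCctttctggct
Atp5h: gaccccgacgGCGCAGGCGCcgcgcccgcc
Atp5g3: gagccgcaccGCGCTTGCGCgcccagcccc
The Atp5c1 window is chr2:10080430-10080459 (minus strand), 1.5 bp from the summit. The Atp5g2 window is chr15:102671070-102671099 (minus strand), 21.5 bp from the summit. The Atp5o window is chr16:91931602-91931631 (minus strand), its site read on the opposite strand and 11.5 bp from the summit. Each of these 3 sites lay inside its peak, as did the next 3. The Atp5k window is chr5:108434430-108434459 (minus strand), 2.5 bp from the summit. The Atp5h window is chr11:115420041-115420070 (minus strand), 3.5 bp from the summit. The Atp5g3 window is chr2:73911295-73911324 (minus strand), 0.5 bp from the summit of 517 described above.

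**Figure D3:**
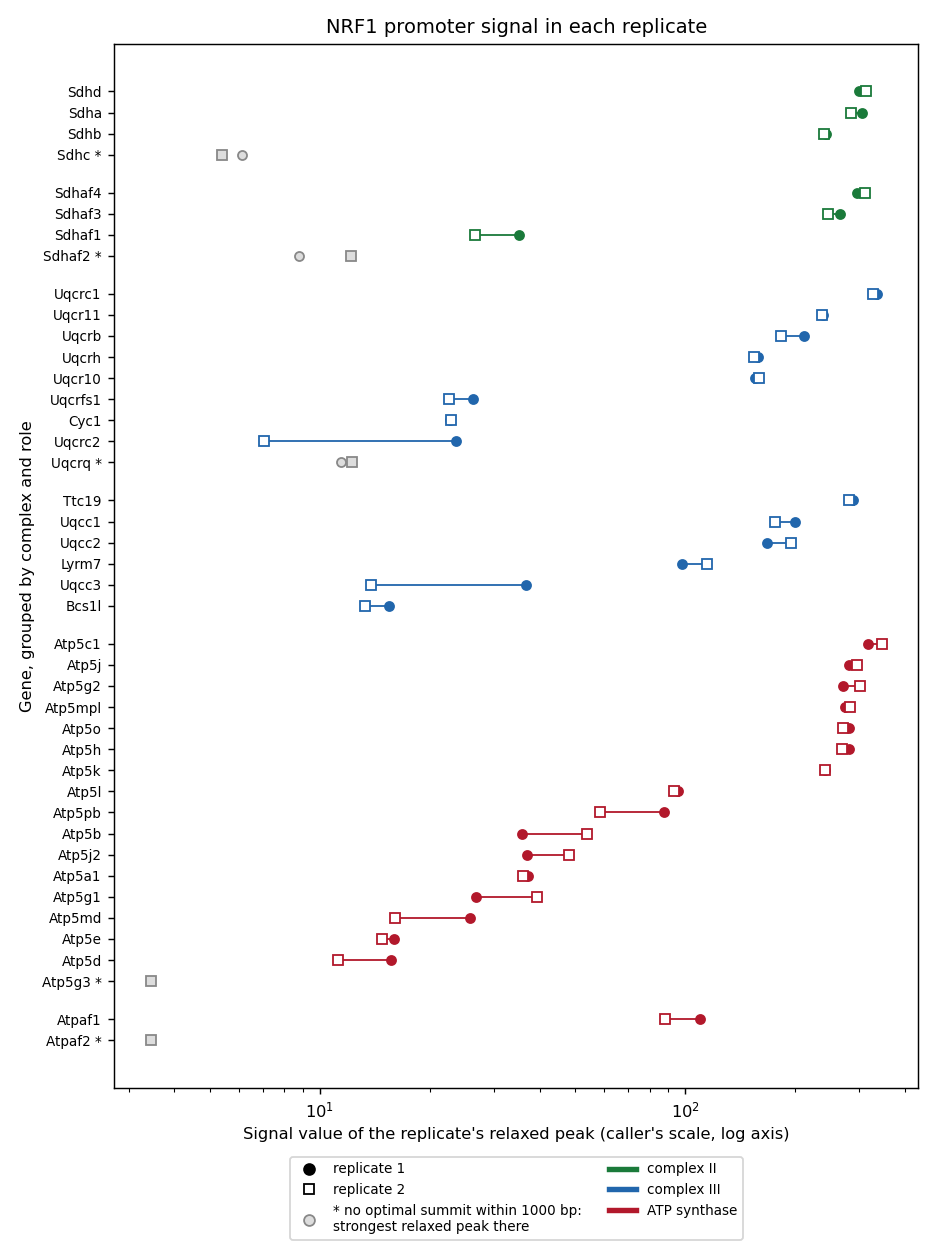
Signal of the relaxed peak in replicate 1 (filled circles) and replicate 2 (open squares) for each gene, grouped by complex and role, on a log axis; grey symbols with an asterisk mark the 5 genes with no optimal summit within 1000 bp and show their strongest relaxed peak there. The strong genes have overlapping symbols, and the widest gaps belong to Uqcrc2 (23.7 and 7.05) and Uqcc3 (36.6 and 13.8).

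Across the 37 occupied genes the order of signals was nearly the same in both replicates. Spearman's rho was 0.973 and Pearson's r on log2 signal was 0.972. The genes share both libraries and were kept by a threshold on reproducibility (IDR), so both coefficients are descriptions. The optimal set also kept Uqcrc2, which ranked 8134 in replicate 1 and 30474 in replicate 2. The coefficient of variation between replicates had a median of 5.52% and reached 76.6%. It was 3.34% at the median for the 24 genes with signals over 100 and 19.3% for the 13 others. Replicate 1 was higher at 24 genes and replicate 2 at 13, and the ratio passed 2-fold at Uqcrc2 and Uqcc3. Differences between genes near each other in the order, such as Atp5c1 (318 and 346) and Uqcrc1 (335 and 327), were within the spread of the replicates. Around the line at 100 the replicates came close to each other: the lower value of Atp5pb was 58.6 and the higher value of Atp5b was 54.0. The replicate values of these 2 genes did not overlap, but with 2 replicates the line remains a division of the list made on these values.

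Positions were also alike between replicates. The summits of replicates 1 and 2 lay a median of 6 bp apart, with a largest shift of 153 bp at Atp5d. They lay within 10 bp in 24 of 37 genes, of which 20 were among the 24 genes with signals over 100 and 4 among the 13 weaker ones. The median distance of the optimal summit from the gene start was 53 bp, against 93 bp for all occupied genes. Within 100 bp lay 23 of 37 (62.2%), against 52.4%, and upstream lay 23 of 37 (62.2%), against 49% of all. The genes with 2 summits within 1000 bp numbered 5 (13.5%), against 18.4% with 2 or more.

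**Figure D4:**
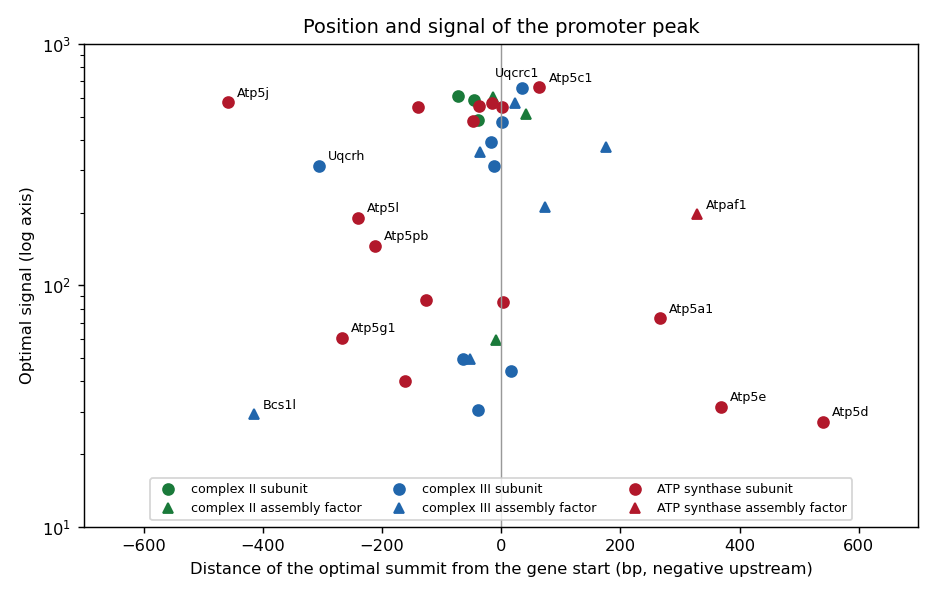
Distance of the optimal summit from the RefSeq gene start (horizontal axis, bp, negative upstream) against its optimal signal (log axis) for the 37 occupied genes, coloured by complex, with circles for subunits and triangles for assembly factors; genes with summits over 200 bp away are named, as are Atp5c1 and Uqcrc1. Strong summits cluster near the start, with Atp5j at -459 bp and 574 lying apart, and the weakest are Bcs1l at -415 bp and Atp5d at +540 bp.

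Signals were higher at promoters with a closer match to the NRF1 consensus. The 8 genes with an exact match were all occupied, with a median of 588 (range 358 to 661), against 559 over 520 occupied genes of 619 with an exact match. Of 13 genes with 1 mismatch, 11 were occupied with a median of 474 (range 27.3 to 587), against 438 over 1325 occupied genes of 1903. The consensus was read at the transcript starts of the promoter table, but occupancy and signal at the RefSeq gene end. Atp5d is therefore counted at its 27.3. Atp5g3 and Atpaf2 are counted as unoccupied, although optimal summits of 517 and 350 lay within 1000 bp of their table starts. Of 14 genes with neither, 13 were occupied (92.9%) with a median of 146 (range 29.3 to 574), against 31.1% of all such genes (4587 of 14752) and a median of 53.6. The medians of the list and of all genes lay close together for exact matches and for 1 mismatch, and were further apart for promoters without a match. The gap in occupancy was also largest there. Of all genes, 84.0% with an exact match and 69.6% with 1 mismatch were occupied, which left less room for a gap. Having neither means only that the promoter window held no match. Within 50 bp of their mm9 summits Atp5j had an exact match and Uqcc1 and Bcs1l had 1 mismatch. The others of this class with an mm9 summit had none. Each of the 8 exact sites lay inside an optimal peak, at a median of 5 bp from the summit (0.5 to 26.5 bp). Over the 13 genes with 1 mismatch, the site nearest to an optimal summit lay at a median of 5.5 bp from it. It was inside a peak for 12 of them. The exception was Atpaf2, at 195.5 bp, and for Atp5d the nearest summit was the one of 491.

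**Figure D5:**
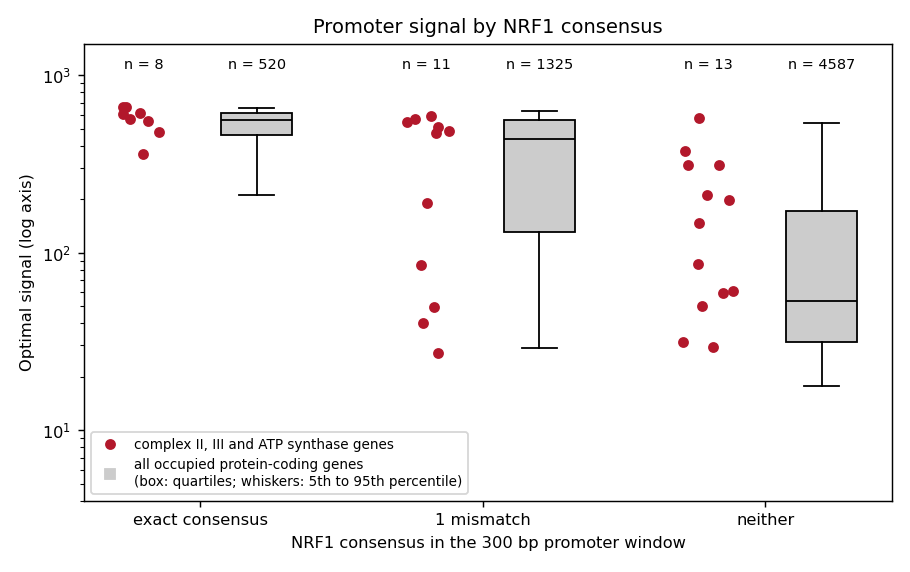
Optimal signal (log axis) by the best match to the NRF1 consensus in the 300 bp promoter; red points are the occupied genes of complex II, complex III and ATP synthase and grey boxes all occupied protein-coding genes (quartiles, whiskers at the 5th and 95th percentile). The 8 genes with an exact match lie between 358 and 661, and the 13 with no match lie between 29.3 and 574.

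The promoter window ends 250 bases upstream, so summits beyond it were looked at in the mm9 genome, in which the authors deposited a further peak set. Around its summits (50 bp to each side) 9 of 36 genes of the list (25%) had an exact match, against 11.8% of 7341 occupied genes, and 24 of 36 (66.7%) had up to 1 mismatch, against 39.0%. Atp5j, whose mm10 summit lay outside the promoter window, had an exact match at its mm9 summit, as did Atpaf2. Atp5g2, Atp5pb, Atp5e and Uqcrc2 were occupied in mm10 but had no mm9 summit within 1000 bp of a start. Atp5mpl, which has no entry in the promoter table, had a site with 1 mismatch 12.5 bp from its mm9 summit and is shown for that reason.
Atp5mpl: gcgctgtggtGCGCAGGCGCggaaggccgg
The window is chr12:113205263-113205292 in NCBIM37 (minus strand). Signals in that set are on a wider scale, with a median of 102 and a maximum of 29665. Uqcrc1 (11669.5) and Sdha (10593) were the highest of the list there, followed by Atp5o (6269.9) and Sdhaf4 (4967), while Atp5c1 had 4721. Uqcrc1 was at or near the top in both sets, whereas Sdha and Atp5o stood higher in the mm9 order than in the mm10 order.

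Other promoter elements were searched as short words on both strands in the same 35 promoters. An ETS word (CCGGAAGT) was in 4 (11.4%), against 5.76% of all promoters, and a YY1 word (AAGATGGC) in 5 (14.3%), against 3.6%. An SP/KLF word (GGGGCGGG) was in 14 (40%), against 24.9%. An NF-Y word (CCAATCA) was in 2 (5.71%), against 10.6%, and a CREB word (TGACGTCA) in 2 (5.71%), against 2.58%. The core GCATGCGC, which overlaps the NRF1 consensus, was in 7 (20%), against 3.98%. Of the words searched, the exact NRF1 consensus and its core differed most in ratio between the list and all promoters. The ratio of the YY1 word, which rests on 5 promoters, was close to that of the consensus with up to 1 mismatch (60% against 14.6%). Over 1000 bp around the mm9 gene starts the exact consensus was in 8 of 42 genes, against 4.67% of all.

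Counting the strongest summit of each gene, 12 of the 37 occupied genes (32.4%) had it within 1000 bp of the start of another protein-coding gene as well, against 23.8% of all occupied genes. The second summit of Atp5j, near Gabpa, is not in this count. For these 12 the peak cannot be assigned to one gene. In complex II these were Sdha with Ccdc127, the starts 77 bp apart, and Sdhd with Timm8b, an import chaperone of the intermembrane space, 52 bp apart. In complex III they were Uqcrb with Gm10767 (65 bp apart), Uqcrh with Lrrc41 (199 bp), Uqcr10 with Zmat5 (312 bp), Ttc19 with Zswim7 (34 bp) and Bcs1l with Zfp142 (156 bp). In ATP synthase they were Atp5c1 with Kin, a DNA- and RNA-binding protein (41 bp), Atp5h with Kctd2 (175 bp), Atp5pb with Wdr77 (235 bp), Atp5md with Pdcd11 (88 bp) and Atp5a1 with Haus1 (117 bp). All of these pairs are transcribed away from each other with the starts not overlapping, except Atp5a1 and Haus1, whose first 117 bp overlap. The Sdhd summit lay at -72 bp from the Sdhd start and +20 bp from that of Timm8b, and the Atp5c1 summit at +64 bp from the Atp5c1 start and -105 bp from that of Kin. Pairs with a shared peak included some of the strongest genes of the list, Atp5c1, Sdhd and Sdha, and some of the weakest, Bcs1l (29.3) and Atp5md (40.1).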

How the data were processed

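The files hold NRF1 peaks in 2 replicates of CH12.LX, per the labels and the deposited text notes. The authors called peaks and background per replicate and on pooled replicates, then kept peaks by IDR (optimal and conservative sets, mm10); a peak set on mm9 was also deposited. The signal value per peak is the authors' deposited signal; its scaling, the aligner, the caller and the thresholds were not given in the sources used here. Depth is unknown, since no read totals were used. Summits were read as start plus offset and kept on chromosomes 1 to 19 and X. Set sizes were 17547 (optimal), 15936 (conservative), 11216 (mm9), 299936 (replicate 1) and 299924 (replicate 2).

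Gene starts are 5′ ends of RefSeq genes (GRCm38.p6); strand came from the promoter table (17274 genes), GENCODE by symbol (3649) or synonym (390), and 318 of 21631 genes without a strand were left out. The replicate value is the relaxed peak with the nearest summit among those overlapping the optimal peak by at least 1 bp. Where a gene had several summits the strongest was used. mm9 values used NCBIM37 and GENCODE vM1, with nothing converted between builds. Occupancy in mm9 was counted at any transcript start of a protein-coding gene, and CpG content around the gene 5′ end.

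All genes of the list are named. Replicate values were fixed for the 6 strongest, the 6 weakest, the unoccupied and those sharing a peak, and the 2 strongest of each comparison list are named; the other replicate values were added. The genes and lists were chosen with earlier results of these data known, and the signal line at 100 and the transcript-start alternative after seeing these values. With 1 group there was no test between conditions, and lists are described by counts beside all genes. Alternatives were other windows, peak sets, single replicates, motif rules and CpG-rich genes. Scripts were tested on simulated data. Python 3.11.15, pandas 2.3.3, numpy 2.4.6, scipy 1.17.1 and matplotlib 3.10.9 were used.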

Additional observations from a re-analysis of the deposited data

How the results depend on the processing

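The count of 37 occupied genes was 36 within 500 bp, 38 within 2000 bp and 37 in the conservative set. It was 33 among optimal peaks above their median signal and 36 in the mm9 set, with any GENCODE transcript start. When either replicate was left out it was 38 (the strongest peaks of the other replicate, as many as the optimal set holds). Of the 42 genes, 31 were occupied under all 8 of these settings, the reported one included, and Sdhc under none. ATP synthase assembly factors were 2 of 2 occupied in the mm9 set and with transcript starts, and complex III subunits were 5 of 5 with transcript starts, where fewer genes have entries; the median percentile of signal, 68.7 among occupied genes, was 69.4 within 500 bp, 69.9 within 2000 bp, 67.6 in the conservative set, 71.1 with transcript starts and between 68.7 and 69.4 with a replicate left out. Genes holding the NRF1 consensus numbered 8 exactly and 21 with up to 1 mismatch. The remaining summary values, 79 of 88, moved by no more than 1.5 times for a count or the replicate spread for a level. Uqcrc2 was not occupied without replicate 1, in the conservative set, among optimal peaks above their median signal or in the mm9 set. Atp5d was not occupied within 500 bp or above the median signal. No paired analysis was possible because the study has only 1 group. With 2 replicates of 1 line, a coefficient of variation rests on a pair of values, and signals of weak peaks are the less certain ones.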
